A study of Oryza sativa with 12 samples.

Results

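A set of 110 probe sets of the rice GeneChip lost most of their signal in the shoots of a triple mutant, named phr123, while the single mutants phr1 and phr3 stayed near the wild type. They were chosen by their measured signals out of 57194 probe sets, controls left out. A member had a mean signal of 1000 or more in wild type (WT), a mean log2 signal in phr123 at least 3 below WT, and mean log2 signals in phr1 and phr3 both within 0.5 of WT. The fall in phr123 and the near-WT level in both single mutants are therefore what chose the members, and they are given below as a description with no test. Of 8840 probe sets with the required WT signal, 170 (1.92%) fell that far in phr123. Of these, 114 also met the condition on phr1 and phr3, and PHR2, GER5, EXP7 and the laccase gene LAC20 were left out by name.

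RNA came from rice grown in nutrient solution for 14 days with 200 µM phosphate and then for 7 days without phosphate. The groups were phr123 (mutant in PHR1, PHR2 and PHR3), phr1, phr3 and WT, which the titles call Nipponbare. Each group had 3 biological repeats, 1 array each, 12 arrays in all. No group kept on phosphate was analysed here, so every level below is one under phosphate starvation. No phr2 single mutant was analysed either, so the loss of PHR2 alone cannot be told apart from the combined loss of the 3 factors. The protocol names shoots and the tissue label names leaf, and the sources used here do not give the kind of mutation, the number of lines or the cultivar of the mutants.

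PHR proteins are MYB-type transcription factors that recognise a short palindromic element in the promoters of phosphate starvation genes. SPX proteins, whose own genes are switched on in starvation, hold the factors back when phosphate is plentiful. Targets of the pathway in plants include phosphate transporters, galactolipid synthases that free phosphate from membranes, and the SPX genes. In rice, PHR2 is regarded as the main factor of the group in the shoot, with PHR1 and PHR3 acting beside it.

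The deposited values are linear signal intensities on an arbitrary scale, with the same trimmed mean of 500.1 on each array. The median signal ran from 56.6 to 85.6 over the arrays. The level called the reporter level, the 95th percentile of probe sets for marker sequences of other organisms, ran from 48.4 to 87.6. Signals at or below it cannot be told from background. For GAPDH, whose 3' and 5' control probe sets show RNA quality, the log2 difference of 3' minus 5' was 1.69 ± 0.133 in phr123, 2.2 ± 0.358 in phr1, 2.05 ± 0.609 in phr3 and 2.35 ± 0.148 in WT (SD, n = 3 each). Its part in the results was not tested.

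The mutated genes gave a mixed check of the labels. PHR2 had signals of 18.3, 43.8 and 24.3 in phr123, against 1750, 2031 and 1814 in WT, and so was at or below the reporter level in each phr123 array. PHR1 had 569.1, 753 and 810.6 in phr123 and 404.3, 514.2 and 559.5 in phr1, against 876.9, 1096 and 1154 in WT. PHR3 had 1187, 172.6 and 118.3 in phr123 and 57.7, 118.9 and 94.5 in phr3, against 462.4, 469.1 and 386.7 in WT. The array labelled phr123 replicate 1 was thus above every WT array for PHR3, while it was at the reporter level or below for PHR2. The sources used here do not say where these probe sets lie relative to the mutations.

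The same array stood apart elsewhere. In the array labelled phr123 replicate 1, 55 probe sets lay at least 4-fold above both other phr123 arrays and 45 at least 4-fold below both, counting those that reached a signal of 400 on the higher side. That made 100 probe sets, against 0 to 6 in each of the other arrays compared in this way within its own genotype. This count was added after the values were seen. Among the 100, out of 57194 probe sets, were 9 of the 110 members, 5 on the high side and 4 on the low side. The rule used the mean of the phr123 arrays, so 1 outlying array could by itself bring a probe set in. The values of phr123 replicate 1 are therefore named where they decide a result.

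The members were measured from moderate to very high WT levels. WT means ran from 1015 to 45480 with a median of 2793, and 16 members had a WT mean of 10000 or more. The phr123 means ran from 7.23 to 4867 with a median of 181.2. The log2 difference of phr123 from WT ran from -8.40 to -3.03 with a median of -3.77. It was -6 or lower in 18 members, between -6 and -4 in 29, and above -4 in 63. In 79 members no phr123 array was down at the reporter level, though some were only just above it. LOC4336406 had 78.3, 85.6 and 76.4 in phr123, against reporter levels of 54.8, 69.2 and 71.9 on those arrays. A signal left in the triple mutant is thus not shown for all 79. In 10 members all 3 phr123 arrays lay at or below the reporter level, in 14 members 2 arrays did, and in 7 members 1 array did. For the 10, only a lower limit of the fold can be given, as the WT mean over the reporter level of the phr123 arrays. In bulk RNA, fewer cells of a type and less RNA per cell cannot be told apart.

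In 108 of the 110 members, every phr123 array lay below every array of the other genotypes. The other 2 were both probe sets with no gene in the annotation, and the exception in each was phr123 replicate 1. The first had 9648, 1.8 and 23.9 in phr123, against 6053, 6276 and 6419 in WT. The second had 12470, 51.7 and 3.8 in phr123, against 8885, 9151 and 10010 in WT. Both were thus above WT in 1 triple mutant array and near the bottom of the scale in the other 2. The rule asked for phr123 means far below those of the other genotypes, so the count of 108 describes the choice of members. No such count was made over other probe sets.

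**Figure D1:**
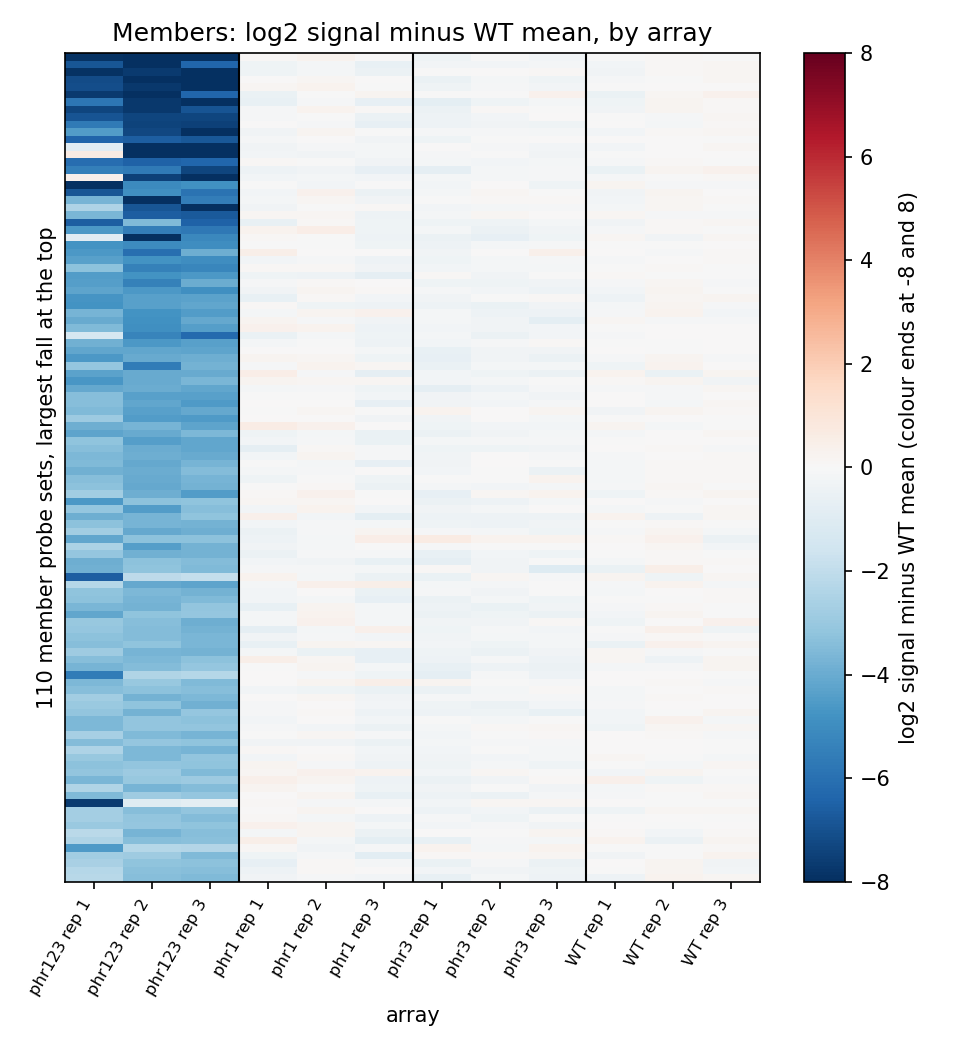
Each row is 1 of the 110 members, with the largest fall at the top, and each column 1 array, with phr123 at the left and WT at the right. Colour gives the log2 signal minus the WT mean of that member, blue for lower. The phr123 columns are blue in nearly every row, with pale or red rows in phr123 replicate 1, and the phr1 and phr3 columns stay near 0.

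Although phr1 and phr3 had to lie within 0.5 of WT, the members were not spread evenly inside that band. The median log2 difference from WT was -0.11 in phr1 and -0.20 in phr3. In phr1, 86 of the 110 members lay below WT (78.2%), against 55.9% of 8216 other probe sets that met the WT level and the band. In phr3, 96 lay below WT (87.3%), against 54.8% of those others. Both single mutants were below WT in 75 members (68.2%), against 35.8% of the others. The phr3 mean was lower than the phr1 mean in 74 members. The median log2 difference of phr1 minus phr3 was 0.1 over the members and -0.01 over those others. These shares are descriptions, since members share arrays and the same 3 WT arrays enter both differences.

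The probe sets that the band removed lay on the same side. Of the 56 that fell by the required amount in phr123 but left the band, 38 were below -0.5 in phr3 only, 11 in phr1 only and 7 in both. None, 0 of 56, was above 0.5 in either single mutant. The label of genes that fell only in the triple mutant therefore depends on the width of the band. These counts are a description, since they come from the values that the rule used and share the same WT arrays. No like split was made for other probe sets outside the band. With a band of 0.25 in place of 0.5, 56 members were left.

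Within each genotype, single arrays were low or high across many members at once. The array phr1 replicate 3 was the lowest of its genotype in 63.6% of members, against 31.4% of other probe sets with the same WT level. In phr3, replicate 1 was the lowest in 56.4% of members, against 32.5% of the others. In WT, replicate 1 was the lowest in 56.4%, against 36.5%. In phr123, replicate 1 was the highest in 61.8%, against 37.1%, and its median deviation from the phr123 mean was 0.303 over the members and -0.007 over the others. The median SD of the log2 signal over the members was 0.433 in phr123, 0.224 in phr1, 0.144 in phr3 and 0.15 in WT. Over the other probe sets it was 0.0966, 0.129, 0.112 and 0.111 in the same groups. Those others were matched on the WT level and not on the phr123 level, where the members had a median mean of 181.2. Signals near the reporter level are noisy on the log2 scale.

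The annotation of the array gave 1 gene for 88 members, several genes for 2 and none for 20. Those 88 probe sets stood for 83 genes, and only 7 of the genes carried a symbol. No protein description came with the other genes, so they are given by identifier and without a role. Of the members, 12 probe sets had the suffix _s_at and 8 the suffix _x_at, which mark probes shared with other transcripts, so their signals may include related genes.

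The named members included 2 germin-like protein genes. Germin-like proteins are secreted proteins of the cupin fold in the cell wall, some of which act on superoxide or oxalate, and rice lines with altered levels of them differ in disease resistance. GER8 (LOC4325743) had signals of 530.8, 358.5 and 313.1 in phr123, 3466, 6160 and 5395 in phr1, and 4472, 4432 and 4730 in phr3, against 5677, 5966 and 5322 in WT. The log2 difference of phr123 from WT was -3.85. Its 2 further probe sets had log2 differences of -3.49 and -3.06, with phr3 at -0.60 and -1.0, outside the band. GER4 (LOC4327911) had 102.6, 93.2 and 145.7 in phr123, 839.1, 1480 and 1145 in phr1, and 943.2, 902.1 and 1045 in phr3, against 1213, 1384 and 1237 in WT. The log2 difference of phr123 from WT was -3.51. Both genes were low in all 3 triple mutant arrays, and the phr1 arrays spread more widely than the WT arrays.

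PRX74 (LOC4339222) is named as a class III peroxidase, a secreted enzyme family that uses hydrogen peroxide in cell wall cross-linking. Its signals were 173.5, 82.7 and 102 in phr123, 2042, 2633 and 2899 in phr1, and 2051, 1733 and 1747 in phr3, against 2147, 2808 and 2011 in WT. The log2 difference of phr123 from WT was -4.34, that of phr1 0.12 and that of phr3 -0.32. The phr3 and WT arrays overlapped, and the highest of the phr123 arrays was replicate 1.

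SUS1 (LOC4333062) encodes a sucrose synthase, which splits sucrose into fructose and UDP-glucose in tissues that draw on imported sugar. Its member probe set had 898, 565.5 and 692.2 in phr123, 6167, 6982 and 6256 in phr1, and 4630, 5222 and 4272 in phr3, against 4856, 6877 and 6595 in WT. A second and brighter probe set had 2095, 1330 and 1310 in phr123, against 9843, 12920 and 12250 in WT. Their log2 differences of -3.10 and -2.91 lay on either side of the threshold of -3. The gene thus fell by a like amount on both probe sets.

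KRP6 (LOC4347280) is one of the KIP-related proteins that inhibit cyclin-dependent kinases, and PP2C73 (LOC4349568) belongs to the type 2C protein phosphatases, some of which act in abscisic acid signalling. KRP6 had 232.9, 305.1 and 277.4 in phr123, 2162, 2123 and 1868 in phr1, and 2295, 2430 and 2393 in phr3, against 2629, 2662 and 2522 in WT. PP2C73 had 154.3, 173.1 and 166.8 in phr123, 1764, 1407 and 1172 in phr1, and 1215, 1341 and 1186 in phr3, against 1518, 1390 and 1686 in WT. The log2 differences of phr123 from WT were -3.27 for KRP6 and -3.21 for PP2C73. In KRP6 both single mutants lay below every WT array as well, at log2 differences of -0.35 in phr1 and -0.13 in phr3. A further PP2C73 probe set, with a WT mean of 608.2, had a log2 difference of -2.33. Dimmer tested probe sets of PP2C73 and KRP6, with WT means of 122.7 and 92.1, had log2 differences of -1.46 and -1.0, and their phr123 signals were at or below the reporter level in 3 and 2 arrays.

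C3H2 (LOC4327304), also called DOS, encodes a CCCH-type zinc finger protein that delays leaf senescence in rice. Its member probe set had 761.8, 1.6 and 39.4 in phr123, 1475, 1368 and 1062 in phr1, and 1023, 893.8 and 1103 in phr3, against 1553, 1139 and 1574 in WT. A second probe set of the gene had 1087, 1729 and 1664 in phr123, against 2192, 1991 and 2608 in WT. The log2 difference from WT was -5.27 on the first and -0.62 on the second. The first probe set thus gave a fall that rested on replicates 2 and 3, where the second kept most of its signal, and within replicate 1 the log2 difference of the first from WT was -0.88.

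**Figure D2:**
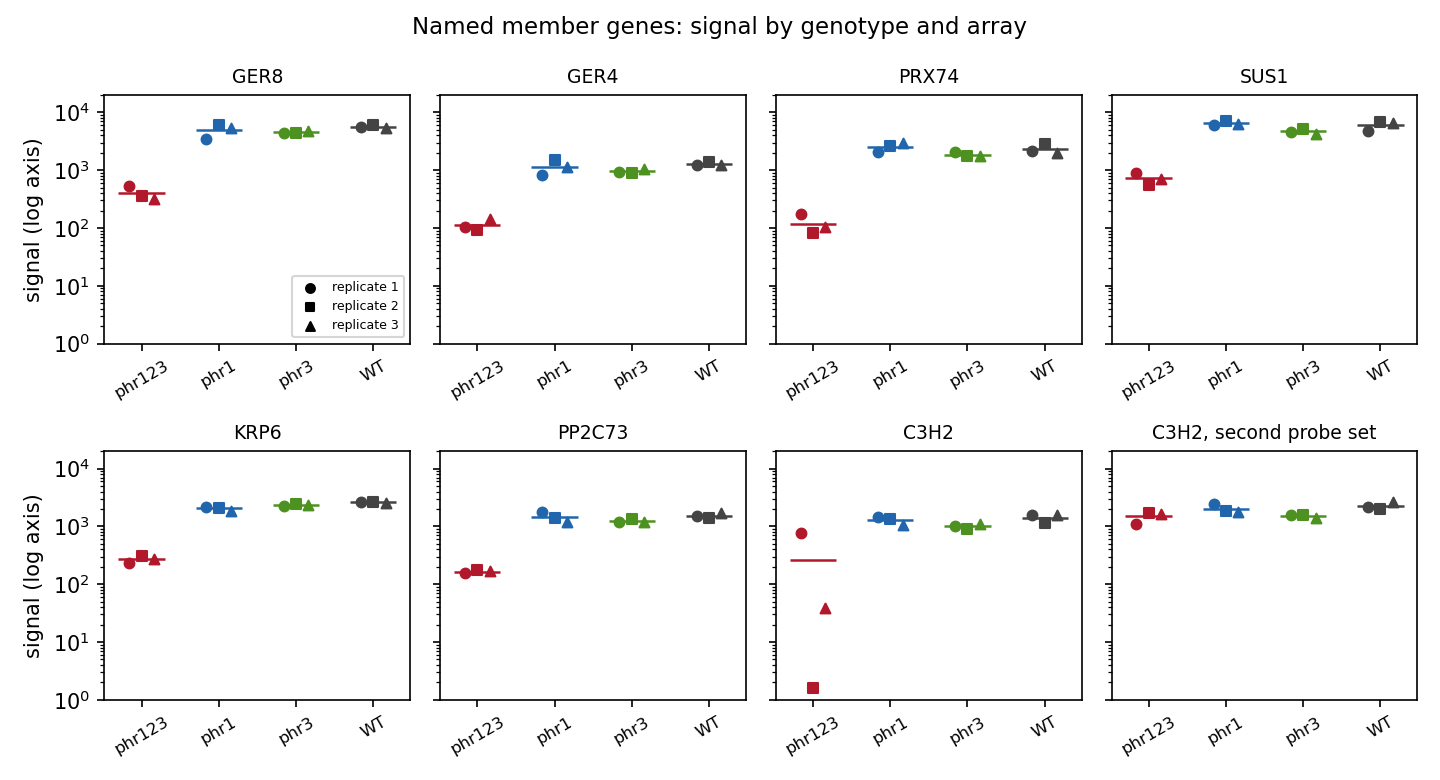
Signal on a log axis by genotype for the 7 named genes and the second probe set of C3H2. Points are arrays, with a shape for each replicate, and lines are genotype means. The phr123 points sit below all others in the first 7 panels, and in C3H2 they spread between 1.6 and 761.8.

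The brightest members in WT were mostly genes with no symbol. LOC4337187 had 4375, 2247 and 2204 in phr123, 43980, 44730 and 38290 in phr1, and 36890, 41070 and 36660 in phr3, against 45840, 43490 and 47120 in WT. Its log2 difference of phr123 from WT was -4.03, so that a clear signal remained. LOC4330227 had 508.7, 394.7 and 427.5 in phr123, 36790, 34970 and 29320 in phr1, and 31810, 30300 and 31440 in phr3, against 33230, 36930 and 35030 in WT. Its log2 difference was -6.31. LOC4327106 had 165.5, 61.1 and 90.1 in phr123, against 22680, 23170 and 26570 in WT, a log2 difference of -7.96. Its 2 further probe sets had log2 differences of -8.65 and -8.12, with 2 of the 3 phr123 arrays at or below the reporter level in each, so the background sets part of the size. Their phr3 differences of -0.54 and -0.82 put them outside the band. LOC4327106 had 1 phr123 array at or below the reporter level, and LOC4330227 and LOC4337187 had 0.

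Of the 10 members with the highest WT means, 6 were probe sets of 4 neighbouring genes. In RefSeq gene order, LOC4348119, LOC4348120, LOC4348121, LOC4348122 and LOC4348123 are consecutive protein-coding genes on chromosome 10, and all but LOC4348120 had a member. LOC4348119 had 88.3, 58.6 and 49.7 in phr123, 22630, 26450 and 21920 in phr1, and 17040, 20850 and 18500 in phr3, against 21000, 22390 and 20920 in WT. Its log2 difference of -8.40 was the lowest of the 110 members, with 2 of the phr123 arrays at or below the reporter level. LOC4348121 had 4086, 1398 and 1328 in phr123, against 30460, 31880 and 30280 in WT. LOC4348122 had 2116, 481.3 and 548.6 in phr123, against 19930, 21460 and 19800 in WT. LOC4348123 had 3566, 1431 and 1651 in phr123, against 16770, 19540 and 19600 in WT. Their log2 differences were -3.97, -4.63 and -3.19. Replicate 1 was the highest phr123 array in each of these genes.

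LOC4348120, which lies among them and missed the threshold, had 8529, 3847 and 3799 in phr123, against 37880, 37700 and 38260 in WT. Its log2 difference was -2.93 ± 0.232 (SE). The next measured gene on that side, LOC4348127, had 2261, 2362 and 2350 in phr123, against 1722, 1918 and 1657 in WT, with a log2 difference of 0.40. A probe set listed for LOC4348121, LOC4348122 and LOC4348123 together had 7781, 3516 and 3304 in phr123, against 44010, 43450 and 41340 in WT. The probes of such neighbours can be shared, so the levels of these genes are not independent measurements.

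**Figure D3:**
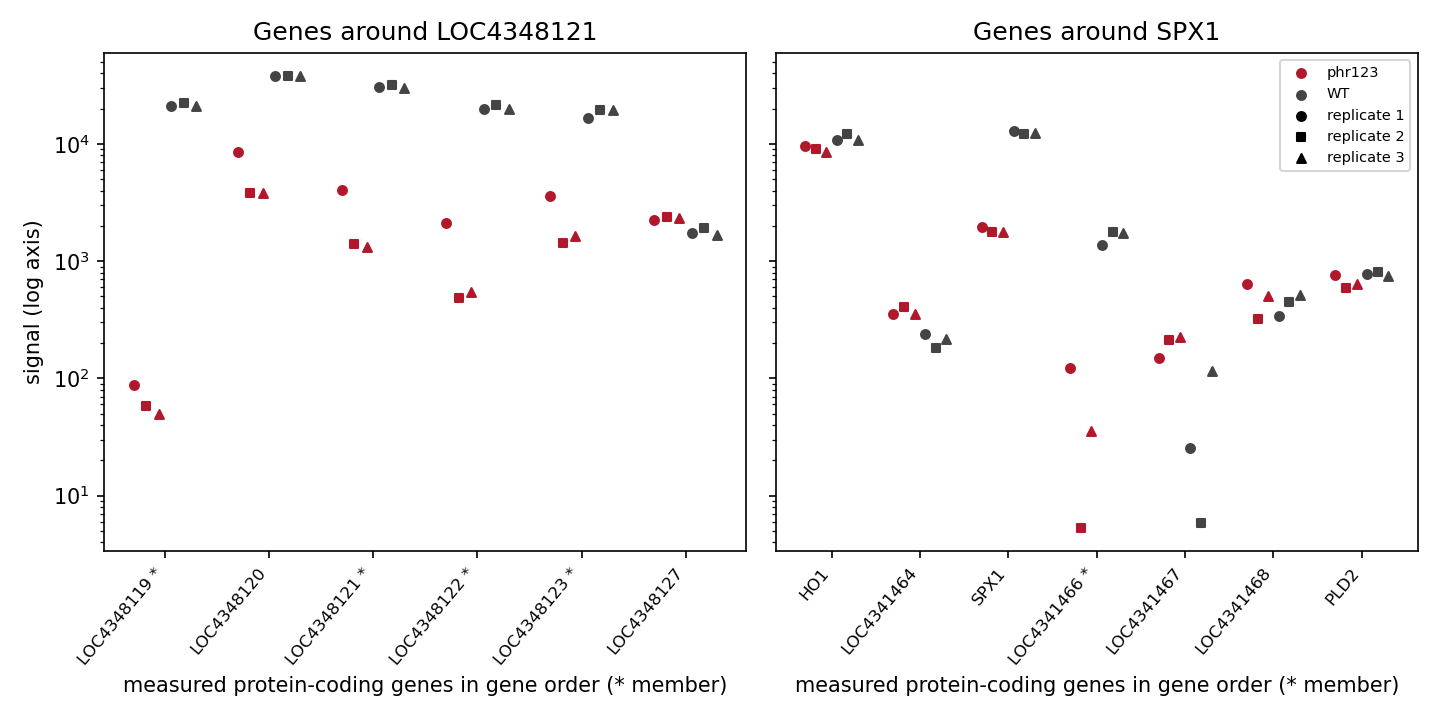
Signal on a log axis of neighbouring measured genes in RefSeq gene order, phr123 left of WT for each gene, with a shape for each replicate and an asterisk on members. At the left, 5 genes from LOC4348119 to LOC4348123 are lower in phr123 and LOC4348127 is not. At the right, SPX1 and LOC4341466 are lower in phr123.

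Neighbours were also counted over all member genes, and no such count was made for other genes. Of 84 member genes, counting those of probe sets with several genes, 6 lay within 2 protein-coding genes of another member gene. The pair outside the stretch was LOC4342377 and LOC4342379, with 1 gene between them. LOC4342377 had 499.4, 203 and 229.6 in phr123, against 3216, 4041 and 3101 in WT. LOC4342379 had 248.7, 11.9 and 4.7 in phr123, against 1238, 1523 and 1318 in WT. Replicate 1 was again the highest phr123 array in both genes of the pair.

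LOC4341466 is the next protein-coding gene after SPX1, a neighbour noticed after the values were seen. It had 10, 37.6 and 18.8 in phr123, 995.3, 1470 and 827.6 in phr1, and 1041, 1252 and 1111 in phr3, against 950.8, 1304 and 1181 in WT. That made it at least 17.5-fold lower in phr123. Its second member probe set had 122, 5.3 and 35.4 in phr123, against 1375, 1757 and 1730 in WT. SPX1 itself had 1940, 1784 and 1790 in phr123 and 9119, 8447 and 8078 in phr1, against 12830, 12050 and 12430 in WT. It fell in phr123 (log2 difference -2.76 ± 0.0735 SE, limma adjusted p = 9.5e-12) and in phr1 (-0.54, adjusted p = 0.00212). SPX1 was no member, since its phr123 difference missed the threshold of -3 and its phr1 difference lay below the band. The phr1 arrays of LOC4341466 overlapped its WT arrays.

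Members down at the reporter level in all 3 phr123 arrays included the largest lower limits. LOC4333690 had 42.2, 50 and 30.2 in phr123, 7735, 9112 and 7259 in phr1, and 9762, 10390 and 10700 in phr3, against 8332, 10830 and 11030 in WT, at least 154-fold lower in phr123. LOC4331137 had 46.5, 36.2 and 64.9 in phr123, against 6220, 8976 and 8047 in WT, at least 118-fold lower. LOC4324344 had 44, 33 and 33.2 in phr123, against 5213, 5076 and 5919 in WT, at least 83.1-fold lower. LOC4329121 had 44.3, 2.8 and 62.1 in phr123, against 4375, 5432 and 5630 in WT, at least 78.9-fold lower. The limits of the other 6 ran from 15.6 to 26.3, with WT means between 1000 and 2000.

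Probe sets of the same gene did not always tell the same story. The annotation gave 24 further probe sets for 14 of the member genes, and 21 passed the filter on low signals. Of these, 13 had a log2 difference of -2 or lower in phr123, 7 of them -3 or lower, while 2 lay between -2 and -1 and 6 above -1. LOC4333690 held 4 of the 6. One of its other probe sets had 49900, 51260 and 50010 in phr123, against 69750, 66830 and 68270 in WT, a log2 difference of -0.44. The probe set with the limit of 154-fold therefore does not stand for all transcripts listed under that gene.

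In 5 genes 2 probe sets were members, and the rule itself asked for a fall of at least 3 on both. The pairs of log2 differences were -4.18 and -3.71 for LOC4340712, -3.37 and -3.19 for LOC4348123, and -3.56 and -3.03 for LOC4348151. In LOC4348119 and LOC4341466 each probe set had at least 2 phr123 arrays at or below the reporter level, so the sizes of their falls cannot be compared. LOC9269584 and LOC4340879 each had a further probe set, at log2 differences of -3.64 and -2.84, with the same low replicate 1. On that further probe set LOC9269584 had 786.6, 3254 and 2847 in phr123, against 23280, 23630 and 25420 in WT.

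The array labelled phr123 replicate 1 split the members in both directions. With signals below the reporter level set to that level, it was at least 4-fold above the geometric mean of replicates 2 and 3 in 6 members, at least 4-fold below it in 4, and within 2-fold of it in 81. On the high side, LOC4325215 had 759.7, 49.3 and 26 in phr123, against 1806, 2012 and 2019 in WT. A further probe set, with no gene in the annotation, had 538.2, 1.8 and 1.4 in phr123, against 861.7, 1049 and 1134 in WT. Replicate 1 reached a large share of the WT level in both, and replicates 2 and 3 did not.

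On the low side, LOC4341223 had 46.4, 4790 and 5455 in phr123, against 9712, 8978 and 9236 in WT. Its log2 difference was -3.13 over the 3 arrays and -0.86 without replicate 1, so its membership rested on that array. LOC4340879 had 134.2, 3027 and 3452 in phr123, against 14950, 10230 and 14470 in WT. LOC9269584 had 593.2, 5466 and 5930 in phr123, against 29380, 28750 and 27640 in WT. LOC4345356 had 312.7, 1514 and 1468 in phr123, against 7285, 7062 and 7705 in WT. Without replicate 1 the log2 differences of these 3 were -2.01, -2.33 and -2.30.

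Some of the genes that set replicate 1 apart were neighbours. LOC4325211, LOC4325213 and the member LOC4325215 lie within 4 consecutive protein-coding genes, and replicate 1 was the high array in each of those named. LOC4325212, which flanks the same member, had 1350, 1522 and 1364 in phr123, against 1474, 1684 and 1669 in WT. Replicate 1 was thus not the high array there. How often other genes lie this close was not counted. LOC4325213 had 768.3, 1.5 and 6.1 in phr123, against 1007, 1016 and 925.3 in WT. LOC4325211 had 2903, 471.7 and 534.9 in phr123, against 4905, 4845 and 4688 in WT. LOC4329982, LOC4329983 and the member LOC9269584 follow each other, and replicate 1 was the low array in each. LOC4329983 had 34.7, 16350 and 17020 in phr123, against 6753, 7959 and 8151 in WT. The part of this array's plant material, labelling or genotype in these values was not tested.

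Without phr123 replicate 1, 119 probe sets met the rule. They shared 104 with the 110 members and held 15 others. The 6 that no longer met it were LOC4340879, LOC9269584, LOC4341223 and LOC4345356 above, and LOC4324785 and LOC4331117, at log2 differences of -2.97 and -2.95 without that array. LOC4348120 and the brighter SUS1 probe set were among the 15 that came in. The median log2 difference of the 110 members was -3.96 without that array.

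**Figure D4:**
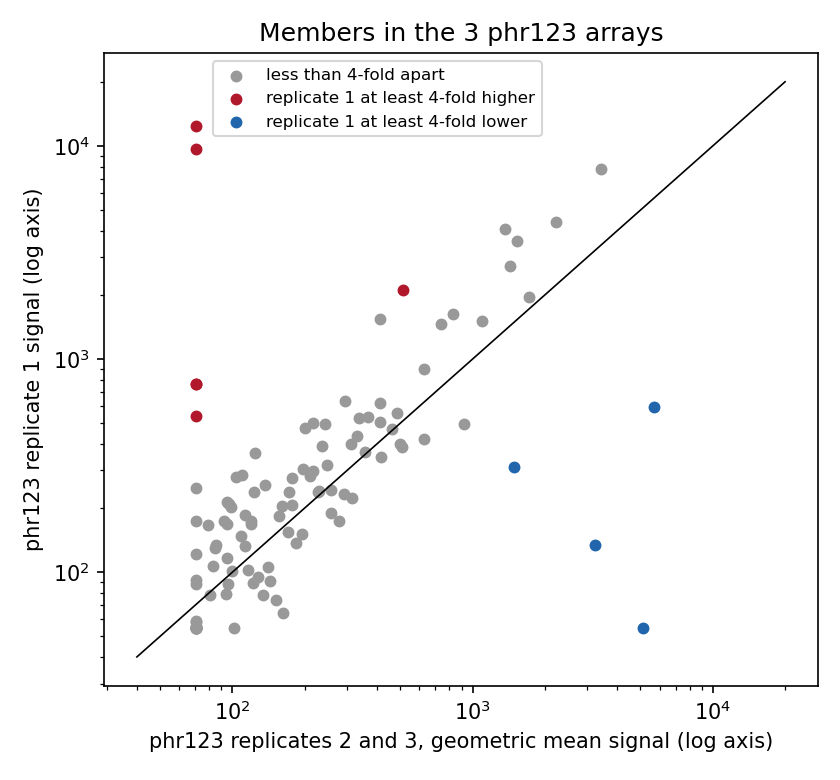
Each point is 1 member, with the signal in phr123 replicate 1 against the geometric mean of phr123 replicates 2 and 3, both on log axes with signals below the reporter level drawn at that level. The line marks equal signals. Replicate 1 is at least 4-fold higher in 6 members (red, 2 of the points overlapping) and at least 4-fold lower in 4 (blue).

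The rule cut through a continuous range of values. Just inside the threshold of -3 lay LOC4338092, LOC4325349 and the second probe set of LOC4348151, all at -3.03. Just outside lay LOC4332023 at -2.95, LOC4345110 at -2.94 and LOC4343816 at -2.93. At the WT threshold of 1000, a probe set with no gene (1015), LOC4338802 (1021) and LOC4338974 (1078) were inside. LOC4325213 (982.5), LOC4350668 (974.1) and LOC4348826 (964.1) were outside, with log2 differences of -5.68, -4.56 and -3.85 in phr123. At the lower edge of the band, LOC4342336, LOC4346864 and C3H2 were inside at -0.49 in phr3, and LOC4329036 was outside at -0.51. For phr1, a probe set with no gene was inside at -0.48, LOC4325372 inside at -0.45 and LOC4334511 inside at -0.44. A probe set with no gene was outside at -0.54, LOC4345161 at -0.63, and another with no gene at -0.65, with a WT mean of 36120.

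Genes that the rule did not choose could be tested. The fit was a limma model over all 28597 probe sets that passed the filter, with Benjamini-Hochberg adjustment and a threshold of 0.05. With 1 probe set for each of 15469 genes, 25.3% were lower in phr123 than in WT and 25.7% were higher, with a median log2 difference of 0.05. The counts below are read against these shares.

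The genes that flank the members in gene order were counted next. Of 146 measured genes among the 2 nearest on each side of each member gene, 39 fell (26.7%) and 37 rose (25.3%), with a median log2 difference of 0.05. LOC4330177, next to a member, had a mean signal of 4210 in phr123, against 29150 in WT, and fell (-2.80 ± 0.0934 SE, limma adjusted p = 8.81e-11). LOC4337186, beside the bright member LOC4337187, rose (2.26, adjusted p = 2.8e-08), with means of 4651 in phr123 and 973.8 in WT. LOC4336407, named LTR1, rose as well (2.11, adjusted p = 4.43e-08), and LOC4349192 fell (-2.27, adjusted p = 6.23e-08). With only the nearest gene on each side, 24 of 75 fell (32%) and 19 rose (25.3%), so the share that fell depended on the window.

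Pooled together, the relatives of the named members, most of them PP2C and CCCH genes, did not fall more often than all genes. Of 108 measured genes that share the letters of a symbol with a named member, 24 fell (22.2%) and 31 rose (28.7%), with a median log2 difference of 0.10. Centring the arrays on their medians changed this split to 12 and 27 (11.1% and 25%), and that of all genes to 18.7% lower and 24.4% higher. Among 6 other germin-like genes, GER5 had a log2 difference of -6.24. It met the thresholds of the rule and was left out of the members by name, so its fall is a description, and without it 23 relatives of 107 fell (21.5%). GER2, GER6 and GER7 rose, and GER1 and GER3 did not pass the test. GER6 had a mean signal of 1392 in phr123, against 226.5 in WT (2.48, adjusted p = 1.4e-05). The germin-like genes outside the members thus included GER5, far lower in phr123, and 3 that rose.

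Of 4 further sucrose synthase genes, SUS6 fell (-1.41, limma adjusted p = 0.000173), SUS5 fell (-1.36, adjusted p = 0.000652), SUS2 fell (-0.26, adjusted p = 0.023) and SUS4 rose (1.47, adjusted p = 8.26e-07). Of 51 further PP2C genes, 11 fell and 16 rose, with PP2C33 the lowest (-2.75, adjusted p = 1.3e-06). Of 43 further CCCH genes, 7 fell and 10 rose, with C3H9 the lowest (-1.84, adjusted p = 2.03e-06). Among the KRP genes, KRP5 and KRP1 fell by log2 differences of -0.54 and -0.33, limma adjusted p = 0.0409 and 0.00575. KRP4 did not pass the test. The share that fell was thus 75% of 4 sucrose synthase genes and 66.7% of 3 KRP genes, against 25.3% of all genes. The 1 measured PRX relative rose (1.58), from WT signals of 26.2 to 132.1. Centring the arrays on their medians ended the calls of SUS2, KRP5 and KRP1 (adjusted p = 0.416, 0.156 and 0.217), and quantile normalization that of KRP5 (adjusted p = 0.0622).

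Of 27 phosphate starvation genes listed by symbol, 21 were on the array and 0 were members. Member genes were 83 of the 15469 genes tested (0.537%), so a count of 0 in a list of this length is near the background. Symbol matching may have brought in unrelated genes. Of 18 measured, 9 fell in phr123 (50%) and 3 rose. In phr1, 7 of the 18 fell (38.9%), against 0.627% of all genes tested. SPX1, SPX2, SPX3 and SPX5, whose products hold PHR factors back, were among the 9. SPX2 had means of 1890 in phr123 and 1993 in phr1, against 12750 in WT, with log2 differences of -2.76 in the triple mutant (limma adjusted p = 8.17e-10) and -2.67 in the single mutant (adjusted p = 4.81e-08). MGD2, a galactolipid synthase gene, had means of 97.2 in phr123, 2130 in phr1 and 2719 in phr3, against 3454 in WT. Its log2 difference was -5.16 in phr123 (adjusted p = 1.14e-11) and -0.70 in phr1 (adjusted p = 0.0321). MGD3 fell too (-2.15, adjusted p = 7.31e-10 in phr123). SPX5 was at or below the reporter level in all 3 phr123 arrays, which puts its fall at 43.5-fold or more (limma adjusted p = 4.33e-07). It had a log2 difference of -0.86 in phr1, which did not pass the test (adjusted p = 0.684). SPX3, SPX5 and MGD2 had a deep enough fall in phr123 and a high enough WT level for the rule, but their phr1 means lay below the band.

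**Figure D5:**
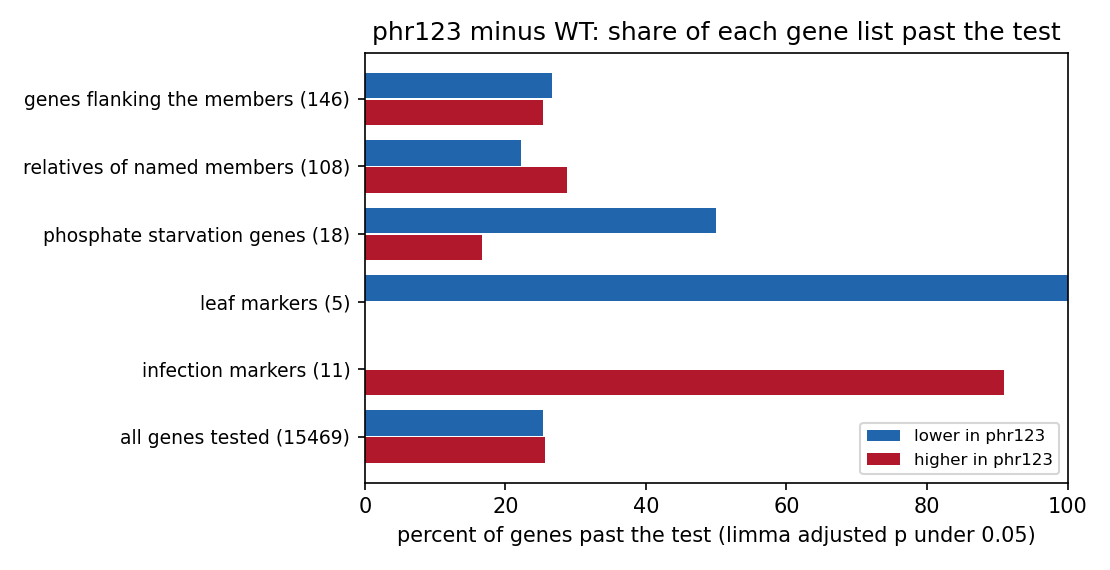
Percent of measured genes that passed the limma test at an adjusted p under 0.05 in phr123 against WT, lower in blue and higher in red, for 5 gene lists and for all genes tested. The number of measured genes is in parentheses. Flanking genes lie near the shares of all genes, relatives (22.2% lower, GER5 included, and 28.7% higher) somewhat to the higher side, and leaf and infection markers lie to one side, where 3 of the 5 leaf markers stay lower with quantile normalization or centred arrays.

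Marker genes of tissue state also differed between genotypes. All 5 measured leaf markers, such as RBCS, the small subunit of Rubisco, were lower, and their summed signal was 193100 to 226700 in phr123, against 285700 to 288200 in WT. RBCS had means of 46070 in phr123 and 72020 in WT (-0.65, limma adjusted p = 0.000239). With quantile normalization or centred arrays, 3 of the 5 leaf markers passed the test, RBCS among them. Of 11 measured infection and wounding markers, 10 were higher, with a summed signal of 100900 to 102800 in phr123, against 30590 to 34020 in WT. Among them, PBZ1, a pathogenesis-related gene of the PR10 family, had means of 51380 in phr123 and 15580 in WT (1.72, adjusted p = 1.3e-07). Of the 3 senescence markers, SGR (0.91) and NYC1 (0.60) rose and NOL (-0.72) fell, with a summed signal of 8810 to 10060 in phr123, against 6113 to 6610 in WT. Of 7 markers of dividing tissue, 3 were lower, with a summed signal of 1024 to 1292 in phr123, against 1443 to 1633 in WT. In phr3, 2 of the 7 were lower (all genes, 0.873%), and the summed signal of 1035 to 1160 was also below every WT array. The 1 measured root marker, Lsi1, did not pass the test (0.14, adjusted p = 0.535). The part of tissue state in the fall of the members was not tested.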

How the data were processed

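Total RNA was labelled with biotin for the 1-colour Affymetrix rice array, per the labels' protocols. The deposited values are linear intensity signals, 1 per probe set and array, made with MAS5 per the submitters' processing notes, its version not given in the sources used here. Each array's signals had been scaled to 1 trimmed mean before deposit, and the signal scale has no absolute unit. A total of 123 AFFX and 64 reporter controls out of 57381 probe sets were left out, and 8 values of 0 were set to 0.1, with 0 among those tested.

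The signals were then log2-transformed and not scaled again. Probe sets with a mean log2 signal at or above the median of all (a signal of 49.4) entered 1 fit over 12 arrays with limma 3.58.1 in R 4.3.3 (lmFit, eBayes with trend, 8 residual degrees of freedom). The fit was also run on simulated data with independent normal noise and few changed probe sets. These data differ in far more genes, and 1 phr123 array stood apart. That run therefore does not show how accurate the calls are here. The filter kept all 110 members. Differences of the members are means of log2 signals. MAS5 signals near the reporter level are noisy on the log2 scale. The reporter level left out 3 probe sets of 1 reporter sequence with signal in phr123. In lists, a gene was represented by its brightest probe set on the log2 scale.

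Gene names came from the array's annotation and from RefSeq, assembly ASM3414082v1, used for names and gene order only. The members and gene lists were chosen with earlier results of these data known. Genes named are the members with a symbol, the 10 highest in WT, those nearest each threshold, genes with several probe sets, PHR1 to PHR3, and up to 4 of each list with the smallest adjusted p. Others named, such as those set apart in phr123 replicate 1, were chosen after their values were seen. Promoter motifs and proteins were not analysed here. Alternatives covered scaling, pseudocount, filter, moderation, thresholds, the replicate block and leaving out each array. P-values reflect only how these samples vary, and the number of arrays limits the precision.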

Additional observations from a re-analysis of the deposited data

Results flagged for a closer look

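A reporter control sequence, outside the main measurement, had signal in the triple mutant. Its brightest probe set had 373.5, 432.4 and 458.8 in phr123 (mean 421.6 ± 43.7, SD, n = 3), against 119, 33.7 and 13.7 in WT (mean 55.5). The means in phr1 and phr3 were 58.5 and 55.9. All 3 phr123 arrays, replicate 1 included, lay above every array of the other genotypes. It was singled out because a control that should be dark in rice RNA was above the WT level.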

How the results depend on the processing

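The number of members followed the thresholds of the rule. It was 282 with a fall of -2, 47 with a fall of -4, 56 with a band of 0.25, 167 with a WT mean of 500 and 71 with a WT mean of 2000. Leaving out 1 array at a time gave 103 to 121 members, with at least 97 of the 110 shared. Centring on the medians gave 85 members, 83 of them shared, and a median log2 difference over all genes of 0.14 in place of 0.05. Over the members, 1078 of 1100 recomputed differences stayed within 1 SD of the member's own phr123 log2 signals, and 0 changed sign. Leaving out 1 phr123 array cannot move a mean past that SD, so the first count cannot show stability in those runs. In 109 of 110 members the difference was -2 or lower under each alternative run, the exception being LOC4341223 without phr123 replicate 1 (-0.86). The rule chose members for a deep fall in these same arrays. The count of sign changes and the count at -2 or lower therefore largely follow from that choice, and cannot show stability either.

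Among lists, the relatives that fell numbered 12 with centred arrays, against 24 as reported, while the share of all genes that fell was 18.7%, against 25.3%. With 1 nearest gene on each side, 75 flanking genes were measured, and 24 were lower (32%, against 25.3% of all genes) and 19 higher. Leaving out 1 array at a time gave 36 to 41 lower and 32 to 39 higher flanking genes, 18 to 25 lower relatives, 9 lower phosphate genes each time, and 5274 to 6128 lower probe sets of all, against 6012 with all arrays. With the replicate number as a block these counts were 39, 38, 23, 9 and 5892, so the block changed none of them by over 1.5 times. Samples with the same number did not deviate together (18 pairs, r from -0.0464 to 0.0323, 0 over 0.1). The titles give them only a repeat number, so whether they were grown or handled together is not known here. Signals at or below the reporter level limit the size of the fall in 31 members. Promoter motifs, planned as a description, were not run.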
